A study of Mus musculus with 36 samples.

Results

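Gene expression 3 h into recovery from electrical pulse stimulation (EPS) was compared with Rest in control myotubes. The 6 libraries of EPS 3h Control and the 6 of Rest Control were taken by their titles, 12 of the 36 libraries in the series. C2C12 is a mouse myoblast line whose cells fuse in differentiation medium into multinucleate myotubes that contract when pulsed. Cells of both groups were transfected with the negative control locked nucleic acid (LNA), an antisense oligonucleotide, and used on day 4 of differentiation. EPS Control wells received 2 ms pulses of 13 V at 66 Hz for 3 h, with trains and pauses of 5 s each. They were harvested at the end of stimulation (EPS 0h) or 3 h later (EPS 3h). Rest wells held the electrodes without current for the length of the stimulation, and the sources describe no Rest wells kept through the recovery. The change brought by EPS and that brought by 3 h more in culture therefore cannot be told apart. Each library is 1 well, with 3 wells from each of 2 experiments per condition, so the spread among 6 libraries is partly the spread between wells. The main test took the 6 wells as independent, so its FDR does not by itself measure how well a change repeats between experiments.

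The values are reads counted per gene, and 17675366 to 22516122 reads fell on genes in the Rest libraries and 17451381 to 22812123 in the EPS 3h libraries. The 10 most abundant genes held 5.06 to 5.89% of the reads at Rest and 7.88 to 9.12% at EPS 3h. Expression is given in RPM, reads per 1e6 reads of the library scaled by TMM factors, as the median of the 6 libraries with their range. Changes are given as the log2 fold change (log2FC, EPS 3h minus Rest) with its standard error (SE). FDR is the Benjamini-Hochberg adjusted p value from edgeR's quasi-likelihood test over 13995 genes. All 8 myotube markers were tested and none passed an FDR of 0.05, although *Myh3*, *Myog* and *Myh1* passed as lower when scaled by library size alone. They summed to 15656 to 19633 RPM at Rest and 16137 to 20874 RPM at EPS 3h. Of 5 endothelial markers 3 were tested, *Kdr*, *Pecam1* and *Tek*, and passed as higher. *Kdr* and *Pecam1* stayed under 1 RPM in every Rest library and could enter the test only through other groups. The endothelial list summed to 1.5 to 2.5 RPM at Rest and 6.01 to 14.1 RPM at EPS 3h. *Cdh5* and *Emcn* stayed under 1 RPM in every library. The 5 adipocyte markers summed to 0.184 to 0.417 RPM at Rest and 2.68 to 4.30 RPM at EPS 3h, and none reached the level needed for testing. Of 4 tested fibroblast markers 2 were lower, *Pdgfra* (log2FC -0.95, FDR = 1.24e-06) and *Pi16* (log2FC -0.61, FDR = 0.0431), and the list summed to 47.1 to 75.4 RPM at Rest and 35.9 to 57.1 RPM at EPS 3h. Of the macrophage and leukocyte markers only *Cd68* was tested, and it was lower (log2FC -0.69, FDR = 0.00137), with a sum of 3.78 to 6.91 RPM at Rest and 3.51 to 5.68 RPM at EPS 3h for the list. Of 6 markers of cycling myoblasts *Mki67* was higher (log2FC 0.41, FDR = 0.0351) and *Pax7* lower. *Pi16* did not pass without replicate 1, 2, 3 or 5, nor *Mki67* under library size scaling or without replicate 1, 4 or 5. The part of these differences in the results below was not tested. In these bulk samples fewer cells of a type and less RNA per cell cannot be told apart.

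Cells under heat, oxidative or mechanical load free the transcription factor HSF1 from its chaperones, and HSF1 then binds heat shock elements, arrays of alternating GAA and TTC units, before the genes of the inducible chaperones. Contraction also raises calcium and activates kinases that drive immediate early genes, whose products AP-1, EGR and NR4A regulate later genes. In muscle both programmes are known from the first hours after exercise, when secreted factors and metabolic regulators also change.

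At an FDR under 0.01 and more than 2-fold, 1346 genes (9.62% of the 13995 tested) were higher and 661 (4.72%) were lower at EPS 3h than at Rest. At an FDR under 0.05 without a limit on fold, the call used for gene lists below, 3651 genes (26.1%) were higher and 3626 (25.9%) lower. Scaling by library size alone in place of TMM moved the log2FC down by a median of 0.168 and gave 2675 higher and 5526 lower genes, so small changes shared by a whole family depend on the scaling. The filter on low counts was passed by 950 genes with a mean under 1 RPM at Rest, of which 767 were higher at EPS 3h, and such genes could pass only through other groups. Among the 13045 genes with at least 1 RPM at Rest, 657 (5.04%) were higher and 660 (5.06%) lower by more than 2-fold.

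The largest rises were in genes close to silent at Rest (the plot of the 10 largest rises). *Gm17546* (ENSMUSG00000078648, chromosome 15, 95722338 to 95727968 on the minus strand of GRCm39), a predicted gene, had 0 reads in all 6 Rest libraries and 1.42 to 12 RPM at EPS 3h. The mean at EPS 3h was 40.6-fold the level of 3 reads in the shallowest Rest library, 0.157 RPM. *Gml2* (chromosome 15, 74690798 to 74739341), a GPI-anchored protein of the Ly6 family, went from 0.266 RPM at Rest (0.0503 to 0.419) to 48.9 RPM at EPS 3h (28.1 to 61.4), with a log2FC of 7.41 (SE 0.34, FDR = 9.24e-19). *Gm5566*, a processed pseudogene, went from 0.186 RPM at Rest (0.085 to 0.352) to 59 RPM at EPS 3h (29.1 to 65.8), with a log2FC of 8.01 (SE 0.47, FDR = 6.87e-16). Whether the reads counted on *Gm5566* come from a transcript of its own was not tested. *Il1rl2*, the receptor of interleukin 36, had at most 0.085 RPM at Rest and 5.78 RPM (4.38 to 10.3) at EPS 3h. The other 6 were *Ubtfl1*, *4930447A16Rik*, *Gm48565*, *Prss55*, *A530006G24Rik* and *Pin1rt1*, with at most 3 reads in any Rest library and 1.76 to 16.2 RPM in the EPS 3h libraries. Of the 10, *Gm48565* was the only one that did not pass the test against EPS 0h (9.14 ± 5.91 RPM (SD, n = 6) at EPS 0h, log2FC 0.34, FDR = 0.695).

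**Figure D1:**
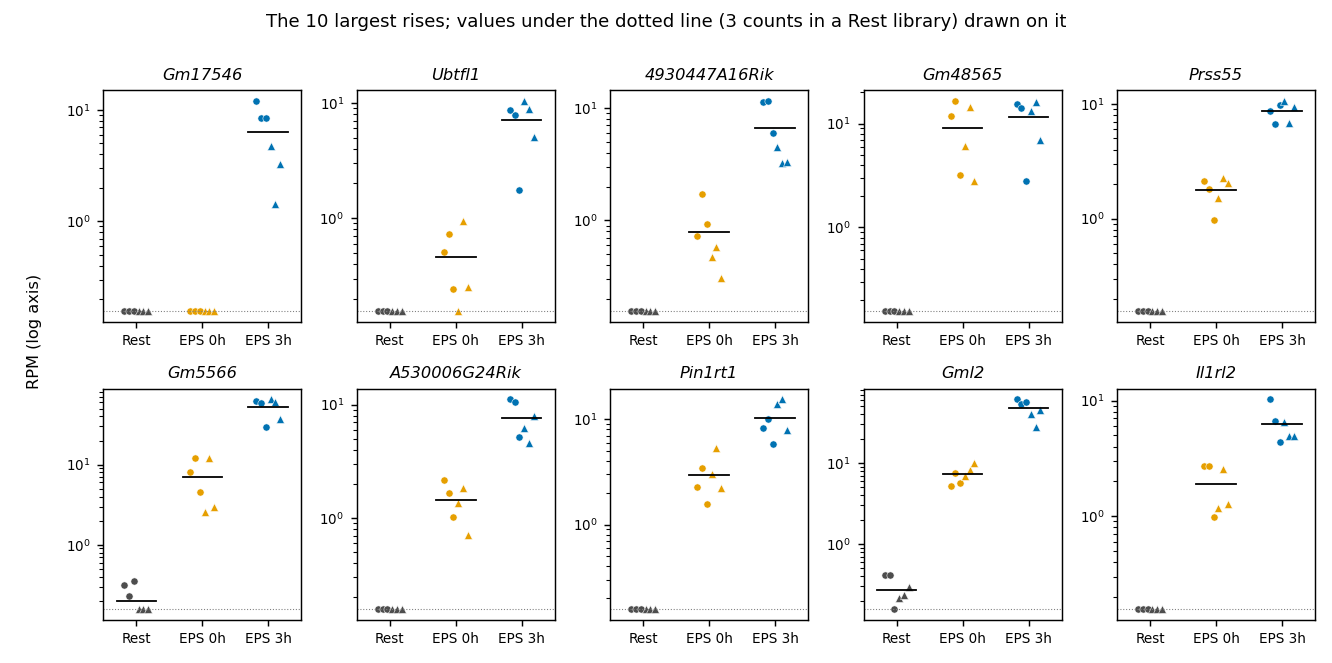
RPM on a log axis of the 10 largest rises in each of 6 libraries of Rest, EPS 0h and EPS 3h Control, with circles for replicates 1 to 3, triangles for replicates 4 to 6 and a line at the mean. The dotted line is 3 reads in the shallowest Rest library (0.157 RPM), and values under it are drawn on it. The genes were chosen for groups that do not overlap, and the EPS 0h mean lies between those of the other groups in all 10. The EPS 0h mean of *Gm17546* (0.0587 RPM) is under the dotted line and is not drawn.

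The same pattern was then counted over all named genes without the filter, a count chosen after the values were seen. In 63 genes every Rest library held at most 3 reads and every EPS 3h library at least 1 RPM, and in 0 genes the reverse held. Over the whole table, genes with at least 1 read numbered 22543 to 23313 in the Rest libraries and 25407 to 27233 in the EPS 3h libraries. More genes were thus seen at EPS 3h in general, and the part of this in the count of 63 was not tested. Of the 63, 36 are protein coding, 20 long noncoding and 5 pseudogenes, 6 also had at least 1 RPM in every EPS 0h library, and 38 showed the pattern in the *Tug1*-KD myotubes too. They include genes of other tissues. *Bsx*, a homeobox gene of the hypothalamus, and *Bmp7*, a bone morphogenetic protein, had 0 reads in all Rest libraries. At EPS 3h they had 4.54 RPM (2.73 to 6.27) and 4.73 RPM (2.33 to 5.48). Their EPS 3h means were 29.3-fold and 27.0-fold the level of 3 reads in the shallowest Rest library. *Uncx*, a homeobox gene of the somites, had at most 3 reads in any Rest library and 8.97 RPM (5.59 to 13.5), and *Epcam*, an epithelial adhesion molecule, at most 1 read and 3.8 RPM (2.29 to 5.07). Genes of the 63 that start within 10 kb downstream of an expressed gene on the same strand made up 14.3%, against 16.9% of all tested genes. The 63 were taken without the filter and the tested genes with it, so these shares are of unlike sets. Such genes include *Gm48565*, *Pin1rt1* and *Il1rl2* of the 10 largest rises, which start 1226, 5062 and 7291 bases downstream. Whether the reads of these 3 genes come from transcripts of their own was not tested.

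The falls were smaller in fold. *G0s2* (chromosome 1, 192949563 to 192956177), an inhibitor of the lipase that starts triglyceride breakdown, fell most, from 29.1 RPM at Rest (26.7 to 34.7) to 3.32 RPM at EPS 3h (2.1 to 4.65), with a log2FC of -3.19 (SE 0.24, FDR = 3.63e-13). It had been at 18.9 ± 7.58 RPM (SD, n = 6) at EPS 0h, and most of its fall lay between EPS 0h and EPS 3h (log2FC -2.54, FDR = 1.81e-09 against EPS 0h). *Bdkrb1*, a bradykinin receptor, fell from 7.71 RPM at Rest (4.87 to 11) to 1.04 RPM at EPS 3h (0.244 to 1.27), with a log2FC of -3.11. *Tsku*, a secreted leucine-rich proteoglycan, fell from 32.6 RPM at Rest (22.1 to 44.6) to 4.31 RPM at EPS 3h (2.14 to 8.07), with a log2FC of -2.76. *Hdhd3*, *Emilin1* and *Fam110a* fell by 2.73, 2.70 and 2.44 on the log2 scale. The remaining 4 of the 10 largest falls, *Cxcl5*, *Cxcl1*, *Irf1* and *Id1*, belong to the inflammatory and BMP genes below. These 10, like the 10 rises, were chosen among genes whose groups did not overlap.

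Heat shock proteins and chaperones were mostly higher. Of 42 members, all tested, 33 were higher and 3 lower at EPS 3h, 23 were higher by more than 2-fold, and in 32 the libraries of the groups did not overlap, which held for 28.9% of all tested genes. The median log2FC of the list was 1.06 against -0.02 over all genes, with 1.11 for replicates 1 to 3 alone and 1.03 for replicates 4 to 6 alone. The inducible HSP70 gene *Hspa1a* (ENSMUSG00000091971, chromosome 17, 35188166 to 35191132 on the minus strand of GRCm39) had 134 RPM at Rest (87.5 to 323) and 5391 RPM at EPS 3h (4195 to 6510.1), with a log2FC of 4.97 (SE 0.28, FDR = 3.1e-16). Its neighbour *Hspa1b* (chromosome 17, 35175412 to 35178214) had 1882 RPM at Rest (1467 to 2427) and 18014 RPM at EPS 3h (14576 to 19584), with a log2FC of 3.22 (SE 0.15, FDR = 2.85e-18). These HSP70 genes are nearly identical in sequence, so the division of reads between them is uncertain, and both had every EPS 3h library above every Rest library. *Hspa1l*, the third HSP70 gene of this cluster, was far lower in level, with 1.88 RPM at Rest (1.36 to 3.93) and 23.9 RPM at EPS 3h (12.2 to 54.2), with a log2FC of 3.69 (FDR = 9.72e-09).

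The promoters of these genes show the units. Windows from 250 bases before to 50 after the start site were taken from RefSeq on GRCm38.p6, with adjacent alternating GAA and TTC units in capitals. *Hspa1a* (chr17:34972107-34972406) and *Hspa1b* (chr17:34959189-34959488), both on the minus strand, are shown because they are the HSP70 genes with the highest levels at EPS 3h among the inducible ones, and their windows differ at 4 of 300 bases. *Hspd1* (chr1:55087883-55088182, minus strand) is shown because this window, 1 of its 2 in the table, holds the element of 3 or more units and overlaps the window of *Hspe1*, which is read in the other direction. The other *Hspd1* window holds neither the element nor a pair of units.
Hspa1a: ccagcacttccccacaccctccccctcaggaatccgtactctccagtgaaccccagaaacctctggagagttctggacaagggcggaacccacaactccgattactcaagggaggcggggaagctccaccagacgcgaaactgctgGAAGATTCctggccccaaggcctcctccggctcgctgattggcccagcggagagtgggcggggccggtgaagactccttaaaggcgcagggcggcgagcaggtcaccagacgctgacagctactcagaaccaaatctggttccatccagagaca
Hspa1b: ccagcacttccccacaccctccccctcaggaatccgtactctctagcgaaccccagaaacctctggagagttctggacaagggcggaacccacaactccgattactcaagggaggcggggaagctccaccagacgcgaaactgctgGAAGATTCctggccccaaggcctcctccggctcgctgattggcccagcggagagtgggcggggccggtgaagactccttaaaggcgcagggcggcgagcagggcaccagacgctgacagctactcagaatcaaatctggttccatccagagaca
Hspd1: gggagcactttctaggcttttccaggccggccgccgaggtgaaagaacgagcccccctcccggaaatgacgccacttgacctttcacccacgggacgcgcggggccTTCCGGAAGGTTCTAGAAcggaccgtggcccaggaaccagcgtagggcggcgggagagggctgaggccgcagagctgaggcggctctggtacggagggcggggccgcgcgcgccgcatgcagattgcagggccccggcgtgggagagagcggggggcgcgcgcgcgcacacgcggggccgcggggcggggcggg
The *Hspa1a* and *Hspa1b* windows hold 1 pair of units, and in the *Hspd1* window the run of units starts 144 bases before the start site. The element of 3 units, GAANNTTCNNGAA or TTCNNGAANNTTC, occurred in 0.603% of the 32851 windows of the table and in 64 of 10497 tested genes with a window (0.61%). It occurred in 16 of 838 genes higher by more than 2-fold (1.91%) and in 3 of 455 lower by more than 2-fold (0.659%). Among heat shock list members with a window it occurred in 5 of 34 (14.7%), *Chordc1*, *Dnajb6*, *Hspd1*, *Hspe1* and *Hsph1*. Single pairs, GAANNTTC or TTCNNGAA, counted after the values were seen, occurred in 17 of these 34 genes (50.0%) and in 13.9% of tested genes, and the *Dnajb1* windows held none. Other motifs were sought on both strands, and a gene counted when any of its windows held a match. The shares of genes follow for those higher by more than 2-fold, those lower by more than 2-fold and all tested genes. The cAMP response element TGACGTCA occurred in 3.1%, 3.3% and 3.49%, the AP-1 site TGAGTCA in 7.4%, 4.84% and 4.87%, the serum response (CArG) box in 1.43%, 0.879% and 1.62%, and the metal response element, TGCACNC or TGCGCNC, in 35.8%, 38.5% and 40.1%. Of the 838 higher genes with a window 461 had at least 1 RPM at Rest, and in these the shares were 4.12% for the cAMP response element, 6.94% for the AP-1 site, 0.868% for the CArG box and 38.2% for the metal response element. A match shows only that the letters are in the window.

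**Figure D2:**
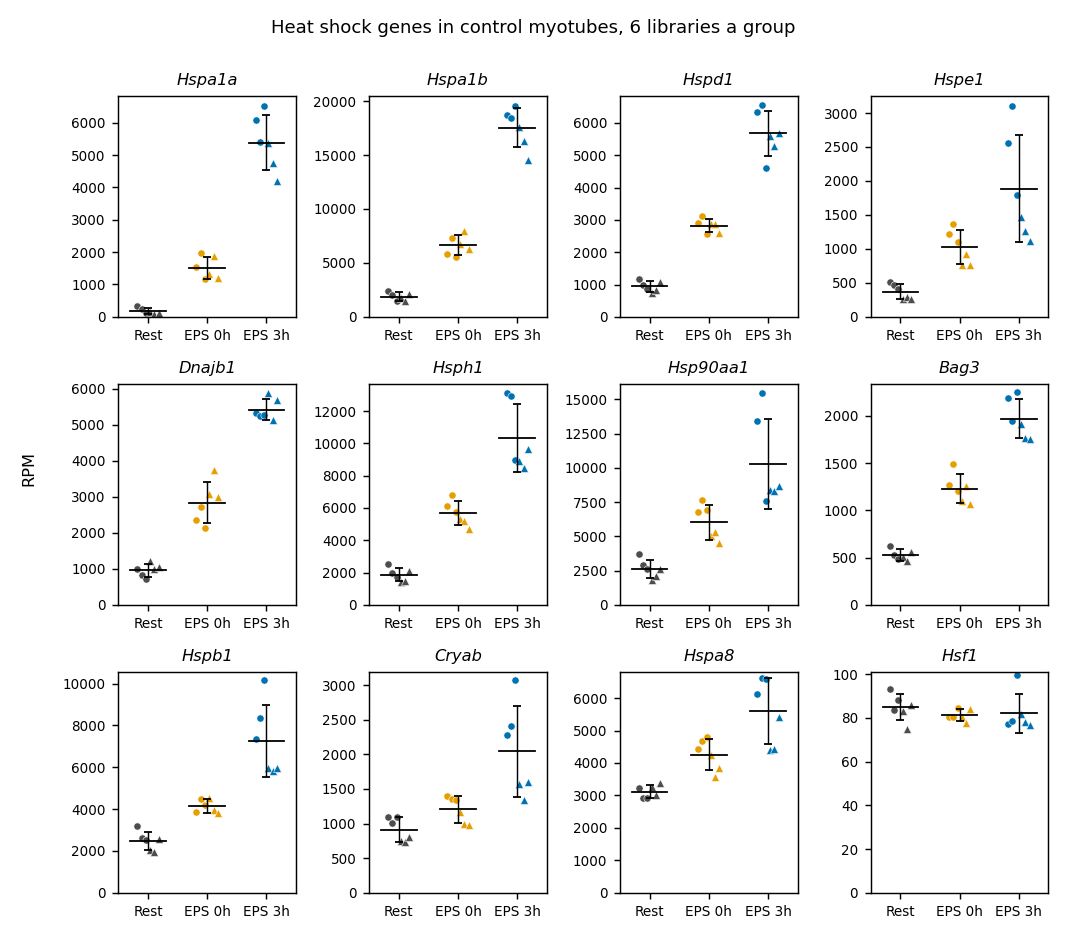
RPM of 12 heat shock genes in each of 6 libraries of Rest, EPS 0h and EPS 3h Control (circles for replicates 1 to 3, triangles for replicates 4 to 6), with the mean and SD in black. All but *Hsf1* show every EPS 3h library above every Rest library, with the EPS 0h mean between the other two.

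*Hspd1* and *Hspe1* encode the mitochondrial chaperonin and its cofactor. *Hspd1* went from 932 RPM at Rest (724 to 1171) to 5636 RPM at EPS 3h (4619 to 6549), with a log2FC of 2.59 (SE 0.12, FDR = 1.15e-18). *Hspe1* went from 347 RPM at Rest (265 to 516) to 1636 RPM at EPS 3h (1119.7 to 3110.1), with a log2FC of 2.36 (SE 0.24, FDR = 2.01e-10). The cochaperone *Dnajb1*, an HSP40 that delivers clients to HSP70, went from 997 RPM at Rest (710.0 to 1217) to 5302 RPM at EPS 3h (5134 to 5881), with a log2FC of 2.5 (SE 0.17, FDR = 2.42e-14). *Hsph1*, a nucleotide exchange factor of HSP70, had a log2FC of 2.47, the cytosolic HSP90 *Hsp90aa1* 1.97, and *Bag3*, which directs damaged sarcomere proteins to autophagy, 1.90. The small heat shock proteins *Hspb1* and *Cryab*, which protect the Z-disc, had log2FC values of 1.55 and 1.16, with no overlap between the groups in either. *Serpinh1*, the collagen chaperone of the endoplasmic reticulum (ER), went from 1649.6 RPM at Rest (1556 to 1808) to 4101 RPM at EPS 3h (3779 to 5358), with a log2FC of 1.36 (SE 0.11, FDR = 1.21e-12). It was at 3717 ± 448 RPM (SD, n = 6) at EPS 0h. The constitutive *Hspa8* and *Hsp90ab1* were higher by less than 2-fold, with log2FC values of 0.84 and 0.79. *Hsf1* itself had 84.7 RPM at Rest (75 to 93.3) and 78.5 RPM at EPS 3h (76.5 to 99.7), with a log2FC of -0.05 (FDR = 0.582), while *Hsf2* was higher (log2FC 0.62, FDR = 0.00112). The 3 lower members were *Hspa2* (log2FC -0.63, FDR = 1.16e-07), *Dnajb5* (log2FC -0.80, FDR = 3.74e-06) and *Hspb7* (log2FC -0.28, FDR = 0.0124), the last of which did not pass without replicate 1, 2 or 6 (FDR = 0.0503 to 0.0706). Of the 42 members, 25 were also higher at EPS 3h than at EPS 0h at an FDR under 0.05 and 0 were lower, where 1354 genes (9.67% of those tested) were higher and 963 (6.88%) lower. With the replicate number as a block 1666 were lower than at EPS 0h, and 607, 609 and 615 without replicates 1, 4 and 6.

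Other protein quality control lists moved less. Of 13 members of the TRiC chaperonin and prefoldin list, which fold actin and tubulin, 8 were higher and 0 lower. *Cct8* had 415 RPM at Rest (349 to 461) and 661 RPM at EPS 3h (539 to 826), with a log2FC of 0.71 (FDR = 4.82e-07). Under library size scaling 7 of the 13 were higher and 2 lower. Of 45 proteasome subunits and assembly factors 14 (31.1%, against 26.1% of all tested genes) were higher and 1 lower, *Psmd5*. Under library size scaling, however, 3 were higher and 9 lower. Ubiquitin genes counted 5 higher and 1 lower of 9. Of 21 genes of the ER unfolded protein response 5 were higher and 5 lower (23.8% each, near the 26.1% and 25.9% of all tested genes). The ER chaperone *Hspa5* was higher (log2FC 0.37, FDR = 0.000148) and its cochaperone *Dnajb9* too (log2FC 0.60, FDR = 0.00644), the latter not without replicate 2 (FDR = 0.0731), while *Xbp1* (log2FC 0.13, FDR = 0.345) and *Ddit3* (log2FC -0.05, FDR = 0.836) did not pass. *Hsp90b1* did not pass (log2FC 0.41, FDR = 0.0794) but did with the replicate number as a block (FDR = 0.000674, 0.000509 to 0.312 over all alternatives). The integrated stress response counted 6 higher and 6 lower of 26 (23.1% each, also near the shares of all tested genes). *Ppp1r15a*, the phosphatase subunit that ends the response, went from 148 RPM at Rest (129 to 172) to 359 RPM at EPS 3h (329 to 453), with a log2FC of 1.32 (SE 0.11, FDR = 2.35e-12). *Atf4* did not pass (log2FC -0.07, FDR = 0.704). *Trib3* and *Chac1*, targets of ATF4, were lower than at EPS 0h (log2FC -1.32, FDR = 0.00184 and log2FC -1.23, FDR = 0.00024). Against Rest *Trib3* was lower too, while *Chac1* did not pass, and with the replicate number as a block it passed as higher.

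Antioxidant and p53 genes did not follow the chaperones. Of 24 members of the NRF2 list 12 were lower and 1 higher. *Nqo1*, a quinone reductase and standard NRF2 target, fell from 51 RPM at Rest (47.6 to 58.2) to 12.8 RPM at EPS 3h (9.63 to 20.1), with a log2FC of -1.92 (SE 0.18, FDR = 5.23e-11). *Aldh3a1*, an aldehyde dehydrogenase, fell from 106 RPM at Rest (91.2 to 124) to 15.8 RPM at EPS 3h (14.9 to 37.4), with a log2FC of -2.33 (SE 0.23, FDR = 1.76e-10). Neither showed overlap between the groups. At EPS 0h they stood at 12 ± 2.88 RPM and 16.3 ± 3.42 RPM (SD, n = 6), and neither passed the test between EPS 3h and EPS 0h. *Txnrd1*, thioredoxin reductase, was the higher member (log2FC 0.47, FDR = 0.0231) and did not pass under library size scaling or without replicate 3, and *Hmox1* did not pass (log2FC -0.24, FDR = 0.438). Of 21 p53 targets 5 were higher and 5 lower (23.8% each, near the 26.1% and 25.9% of all tested genes). The higher ones included *Mdm2*, the ligase that degrades p53 (log2FC 0.61, FDR = 6.27e-05), and the lower ones the proapoptotic *Bbc3* (log2FC -1.55, FDR = 2.86e-07). *Cdkn1a*, the cell cycle inhibitor p21, did not pass (log2FC -0.14, FDR = 0.19). Under library size scaling 2 of these targets were higher and 8 lower.

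Many immediate early genes were higher 3 h after the last pulse. Of 12 AP-1 and ATF factors 6 were higher and 2 lower. *Atf3* went from 165 RPM at Rest (139 to 214) to 493 RPM at EPS 3h (465 to 553), with a log2FC of 1.59 (SE 0.10, FDR = 4.53e-15). *Jun* went from 477 RPM at Rest (426 to 598) to 947 RPM at EPS 3h (864 to 1147), with a log2FC of 1.01 (SE 0.10, FDR = 4.24e-10). *Fos* went from 35.4 RPM at Rest (29.1 to 50.7) to 63.6 RPM at EPS 3h (57.3 to 66.8), with a log2FC of 0.78 (SE 0.13, FDR = 3.28e-06). The groups overlapped in none of the 3 genes. *Junb*, an AP-1 member that opposes *Jun* at many promoters, fell from 497 RPM at Rest (406 to 769) to 130.3 RPM at EPS 3h (57.6 to 219), with a log2FC of -2.03 (SE 0.32, FDR = 1.81e-06), and *Jund* was lower as well (log2FC -0.62, FDR = 0.00255). Of 18 EGR, IER and SRF genes 11 were higher and 4 lower. *Arc*, an activity-regulated gene best known from neurons, had 38.6 RPM at Rest (28 to 56) and 138 RPM at EPS 3h (125 to 174), with a log2FC of 1.83 (SE 0.16, FDR = 5.65e-12). *Egr1* had 217 RPM at Rest (167 to 307) and 383 RPM at EPS 3h (326 to 433), with a log2FC of 0.79 (FDR = 3.46e-05). All 3 NR4A nuclear receptors were higher, with log2FC values of 2.51 for *Nr4a3*, 1.52 for *Nr4a1* and 0.48 for *Nr4a2*, the last of which did not pass under library size scaling or without replicate 2, 4 or 5. None of the 3 passed the test between EPS 3h and EPS 0h. *Klf6* was higher (log2FC 1.31, FDR = 4.55e-10) and *Klf2*, a factor of laminar flow and inflammation, lower (log2FC -1.90, FDR = 1.32e-11). Of 13 Kruppel-like factors 3 were higher and 3 lower (23.1% each, near the 26.1% and 25.9% of all tested genes). Of 12 dual-specificity phosphatases, which switch off MAP kinases, 3 (25.0%) were higher, led by *Dusp16* (log2FC 1.36, FDR = 5.87e-10), and 2 (16.7%) lower. *Dusp1* did not pass (log2FC 0.01, FDR = 0.939).

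**Figure D3:**
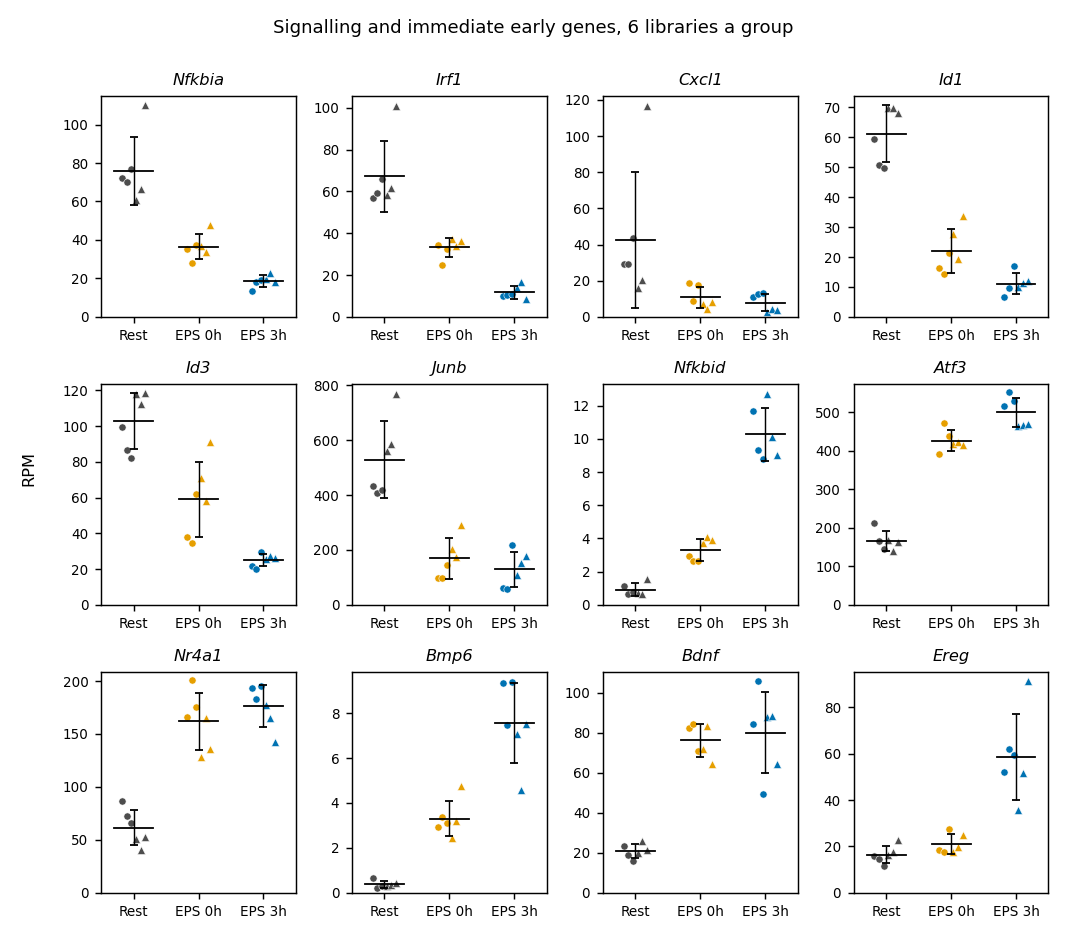
RPM of 12 signalling and immediate early genes in each of 6 libraries of Rest, EPS 0h and EPS 3h Control (circles for replicates 1 to 3, triangles for replicates 4 to 6), with the mean and SD in black. *Nfkbia*, *Irf1*, *Id1* and *Id3* step down from Rest through EPS 0h to EPS 3h, *Nfkbid* and *Bmp6* step up, and *Bdnf* and *Nr4a1* lie at about the same level at EPS 0h and EPS 3h.

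Chemokine and interferon genes were lower more often than higher, while NF-kB genes went both ways. Of 19 chemokines and cytokines tested 10 were lower and 2 higher, with a median log2FC of -0.51, and 6 were lower without replicate 6. *Cxcl1* fell from 29.2 RPM at Rest (15.8 to 117) to 7.48 RPM at EPS 3h (2.73 to 13.3), with a log2FC of -2.45 (SE 0.52, FDR = 0.000141). *Cxcl5* fell from 7.82 RPM at Rest (6.7 to 32.8) to 1.62 RPM at EPS 3h (0.637 to 2.73), with a log2FC of -2.90 (SE 0.47, FDR = 3.75e-06). *Ccl2* fell from 49.2 RPM at Rest (42.3 to 159) to 20.4 RPM at EPS 3h (15.7 to 41.5), with a log2FC of -1.55 (SE 0.31, FDR = 6.03e-05). The groups did not overlap in these 3 genes. Rest replicate 6 was the highest Rest library in all 3, and without replicate 6 the log2FC was -2.17 for *Cxcl5*, -1.66 for *Cxcl1* and -1.02 for *Ccl2*, each still past an FDR of 0.05. The fall was larger in replicates 4 to 6 than in 1 to 3, with log2FC values of -3.87 and -1.46 for *Cxcl1*, and this difference was not tested. *Ptgs2*, the inducible cyclooxygenase, rose from 92.1 RPM at Rest (77 to 137) to 255 RPM at EPS 3h (229.7 to 412), with a log2FC of 1.52 (SE 0.16, FDR = 1.05e-09). *Il11* was higher (log2FC 0.79, FDR = 0.000216), and *Il6* did not pass (log2FC 0.27, FDR = 0.287). The NF-kB list held 7 higher and 6 lower of 15. *Nfkbia*, the inhibitor IkB alpha that NF-kB itself induces, fell from 71 RPM at Rest (60.8 to 110.1) to 18.8 RPM at EPS 3h (13.3 to 22.7), with a log2FC of -2.03 (SE 0.13, FDR = 7.04e-15). *Nfkbid*, a nuclear IkB protein, rose from 0.721 RPM at Rest (0.647 to 1.57) to 9.72 RPM at EPS 3h (8.81 to 12.7), with a log2FC of 3.48 (SE 0.29, FDR = 2.54e-12). It was the 1 tested member of the NF-kB list with a mean under 1 RPM at Rest, and such genes could pass the filter on low counts only through other groups. The deubiquitinase *Cyld* rose from 47.2 RPM at Rest (42.7 to 64.8) to 108 RPM at EPS 3h (73.6 to 142), with a log2FC of 1.12 (FDR = 1.09e-07). Of 20 interferon response genes 9 were lower and 1 higher, and with the replicate number as a block 14 and 2. *Irf1* fell from 60.6 RPM at Rest (57 to 101) to 10.7 RPM at EPS 3h (8.66 to 16.7), with a log2FC of -2.52 (SE 0.15, FDR = 5.77e-16). It was lower than at EPS 0h too (log2FC -1.50, FDR = 2.41e-09). *Mx2* was the higher member (log2FC 2.33, FDR = 1.56e-07). *Socs3*, a feedback inhibitor of STAT3 signalling, was lower (log2FC -1.28, FDR = 0.000118).

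TGF-beta and BMP genes went both ways, with 10 higher and 11 lower of 26 tested. The inhibitors of differentiation *Id1*, *Id2* and *Id3*, which BMP signalling induces and which hold back myogenic factors, were all lower without overlap. *Id1* fell from 63.8 RPM at Rest (49.7 to 69.9) to 10.7 RPM at EPS 3h (6.75 to 17.1), with a log2FC of -2.46 (SE 0.19, FDR = 7.96e-13). *Id3* fell from 106 RPM at Rest (82.2 to 118) to 25.9 RPM at EPS 3h (20.2 to 29.4), with a log2FC of -2.04 (SE 0.19, FDR = 3.03e-11). *Id2* fell from 24.1 RPM at Rest (21.3 to 28) to 10.1 RPM at EPS 3h (6.42 to 13.5), with a log2FC of -1.32 (SE 0.13, FDR = 1.76e-10). Among the ligands *Bmp6* rose from 0.316 RPM at Rest (0.231 to 0.68) to 7.49 RPM at EPS 3h (4.56 to 9.38), with a log2FC of 4.31 (SE 0.27, FDR = 2.42e-15). *Tgfb2* rose from 26.4 RPM at Rest (23.3 to 30.4) to 70.9 RPM at EPS 3h (57 to 136), with a log2FC of 1.71 (SE 0.20, FDR = 4.13e-09). *Bmp6* was among 3 tested members of this list with a mean under 1 RPM at Rest, all of them higher. The inhibitory *Smad7*, which ends TGF-beta signals, was higher (log2FC 1.53, FDR = 2.9e-07). Notch genes counted 4 higher and 4 lower of 13 (30.8% each, against 26.1% and 25.9% of all tested genes). *Notch1* was higher (log2FC 0.95, FDR = 5.04e-06), and the target *Hes1* (log2FC -0.90, FDR = 1.2e-05) and the modifier *Lfng* (log2FC -1.94, FDR = 3.16e-12) were lower. Myokines and growth factors counted 9 higher and 2 lower of 23. *Bdnf*, a neurotrophin that contracting muscle makes, had 20.5 RPM at Rest (16.1 to 25.7) and 86.4 RPM at EPS 3h (49.2 to 106), with a log2FC of 1.94 (SE 0.17, FDR = 9.32e-12). The EGF receptor ligand *Ereg* had 16 RPM at Rest (11.8 to 22.6) and 55.7 RPM at EPS 3h (35.7 to 91.3), with a log2FC of 1.84 (SE 0.21, FDR = 4.68e-09). *Nrg1*, a ligand of ERBB receptors, had 13.4 RPM at Rest (11.7 to 24.9) and 45.4 RPM at EPS 3h (38.4 to 49.1), with a log2FC of 1.54 (SE 0.16, FDR = 5.7e-10). *Ereg* was higher than at EPS 0h (log2FC 1.48, FDR = 2.2e-06), while *Bdnf* did not pass that test (log2FC 0.07, FDR = 0.853). *Metrnl*, a myokine known from exercise, was lower (log2FC -0.74, FDR = 0.000546), and under library size scaling 5 members of the list were lower.

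Among 19 hypoxia genes 6 (31.6%) were higher and 3 (15.8%) lower, against 26.1% and 25.9% of all tested genes. *Epas1*, HIF-2 alpha, went from 0.762 RPM at Rest (0.0941 to 1.31) to 8.04 RPM at EPS 3h (4.9 to 13.3), with a log2FC of 3.50 (SE 0.36, FDR = 3.51e-10). It stood at 0.877 ± 0.346 RPM (SD, n = 6) at EPS 0h (log2FC 3.21, FDR = 2.26e-08 against EPS 0h). *Epas1* was the 1 tested member of this list with a mean under 1 RPM at Rest, and such genes could pass the filter on low counts only through other groups. The collagen prolyl hydroxylase *P4ha1* was higher (log2FC 1.47, FDR = 5.63e-15). *Vegfa* did not pass (log2FC -0.03, FDR = 0.851), and the glucose transporter *Slc2a1* was lower (log2FC -1.21, FDR = 4.62e-10). Of 17 clock genes 5 (29.4%) were higher, led by *Clock* (log2FC 0.97, FDR = 7.43e-06). Lower were 7 (41.2%), led by the output factor *Dbp* (log2FC -1.06, FDR = 0.00101), and *Per1* did not pass (log2FC 0.19, FDR = 0.227). Under library size scaling 2 clock genes were higher, and 5 hypoxia genes were lower.

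The contractile apparatus hardly moved. Of 48 sarcomere and Z-disc genes 3 were higher and 5 lower, and in 0 of them were the groups without overlap. With the replicate number as a block 9 were higher, and without replicate 2 only 1 was lower. Of 9 myosin heavy chains 2 were lower, *Myh7b*, which did not pass without replicate 2 or 6, and *Myh14*, and 5 were lower under library size scaling. The embryonic *Myh3* had 4639 RPM at Rest (3131 to 5739) and 3767 RPM at EPS 3h (3453 to 5116), with a log2FC of -0.18 (FDR = 0.321). The higher sarcomere members were *Unc45b*, the myosin chaperone (log2FC 0.87, FDR = 0.00367), *Myoz1* and *Xirp1*, of which the last 2 did not pass under library size scaling or without replicate 3, and the telethonin gene *Tcap* was lower (log2FC -1.07, FDR = 0.00469). Of 33 genes of excitation-contraction coupling and calcium handling 3 (9.09%) were higher and 9 lower (27.3%, near the 25.9% of all tested genes). Under library size scaling 16 were lower. *Mrln*, the small inhibitor of the calcium pump, was among the lower ones (log2FC -1.41, FDR = 7.55e-05). Myogenic factors moved more, with 5 higher and 5 lower of 15 (33.3% each, against 26.1% and 25.9% of all tested genes). *Myod1* had 84.6 RPM at Rest (78.4 to 87.3) and 58.1 RPM at EPS 3h (55.4 to 66.3), with a log2FC of -0.50 (SE 0.09, FDR = 7.34e-06). The satellite cell factor *Pax7* had 18.2 RPM at Rest (16.8 to 20.5) and 12.9 RPM at EPS 3h (8.31 to 13.4), with a log2FC of -0.62 (SE 0.14, FDR = 0.000339). The repressor *Msc* had 3.82 RPM at Rest (3.31 to 5.18) and 0.623 RPM at EPS 3h (0.343 to 1.22), with a log2FC of -2.64 (SE 0.26, FDR = 1.04e-10). All 3 were lower without overlap. *Myf6* was higher (log2FC 1.46, FDR = 0.000205) and *Myog* did not pass (log2FC -0.16, FDR = 0.244). At EPS 0h *Myod1* stood at 88.6 ± 8.45 RPM and *Pax7* at 22.8 ± 3.94 RPM (SD, n = 6), and both were lower at EPS 3h (log2FC -0.59, FDR = 4.11e-06 and log2FC -0.93, FDR = 6.65e-06). The atrophy ligases *Fbxo32* (log2FC -0.77, FDR = 9.57e-06) and *Trim63* (log2FC -0.64, FDR = 6.2e-06) were lower. *Foxo1*, which can induce them, was higher (log2FC 0.89, FDR = 2.65e-06), as was the ligase *Traf6* (log2FC 1.52, FDR = 1.08e-10). This list counted 5 higher and 5 lower of 14 (35.7% each), and library size scaling left 2 higher.

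Few genes of glucose and fatty acid use were higher, and the share of lower ones was near that of all genes. Of 30 glucose uptake and glycolysis genes 6 (20%, against 25.9% of all tested genes) were lower and 1 higher, with the replicate number as a block 10 and 2, and under library size scaling 13 and 1. *Hk2*, hexokinase 2, had 132 RPM at Rest (118 to 145) and 85.3 RPM at EPS 3h (57.7 to 112), with a log2FC of -0.61 (SE 0.13, FDR = 0.000258). *Pdk4*, which turns off glucose oxidation, had 44.5 RPM at Rest (41.2 to 54) and 25.5 RPM at EPS 3h (19.5 to 28.5), with a log2FC of -0.87 (SE 0.12, FDR = 1.09e-07). Fatty acid use and lipid droplet genes counted 8 lower (32.0%) and 2 higher of 25. *Cpt1a*, which carries fatty acids into mitochondria, fell (log2FC -0.98, FDR = 9.47e-05), as did *Plin4* (log2FC -1.16, FDR = 4.39e-05), whereas *Plin2*, a lipid droplet coat (log2FC 0.55, FDR = 1.7e-05), and *Pparg* (log2FC 1.59, FDR = 1.68e-13) rose. The sterol gene *Hmgcs1* (log2FC 0.68, FDR = 0.0012) was among 7 higher (25.0%) and 5 lower (17.9%) of 28 in cholesterol synthesis. Library size scaling gave 4 and 10, and the replicate block 7 and 11. *Srebf1* was lower (log2FC -0.78, FDR = 0.000312). *Ppp1r3c*, which targets phosphatase to glycogen, was higher than at Rest (log2FC 1.21, FDR = 1.89e-06) and lower than at EPS 0h (log2FC -0.95, FDR = 0.000224).

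Regulators of mitochondria went both ways, and few of the nuclear-encoded subunits passed. Of 17 biogenesis regulators 6 were higher and 6 lower (35.3% each, against 26.1% and 25.9% of all tested genes). In 11 the groups did not overlap, which held for 28.9% of all tested genes. *Gabpa*, an ETS factor of respiratory genes, went from 65.2 RPM at Rest (54.4 to 73.5) to 148 RPM at EPS 3h (111 to 177), with a log2FC of 1.17 (SE 0.11, FDR = 6.44e-11). *Tfam*, which packages mitochondrial DNA, went from 45.3 RPM at Rest (44.5 to 49.5) to 58.7 RPM at EPS 3h (50.6 to 68.6), with a log2FC of 0.38 (SE 0.09, FDR = 0.000353). *Polrmt*, the mitochondrial RNA polymerase, fell from 54.7 RPM at Rest (47.6 to 61.5) to 34.3 RPM at EPS 3h (27.9 to 39.2), with a log2FC of -0.71 (SE 0.09, FDR = 1.91e-08). Of 80 oxidative phosphorylation subunits encoded in the nucleus 2 were lower and 0 higher, with a median log2FC of 0.14 (replicates 1 to 3) or -0.16 (replicates 4 to 6). With the replicate number as a block 4 were lower and 4 higher, and under library size scaling 16 were lower. Of 10 mtDNA-encoded subunits 3 were lower, and 6 with the block. The median here stood at -0.06 for the first 3 replicate numbers and at -0.98 for the last 3. *mt-Nd1* had 1075 RPM at Rest (937 to 1685) and 545 RPM at EPS 3h (435 to 823), with a log2FC of -1.04 (SE 0.25, FDR = 0.000625). Libraries were made from poly-A RNA, which mitochondrial transcripts carry only as short tails.

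**Figure D4:**
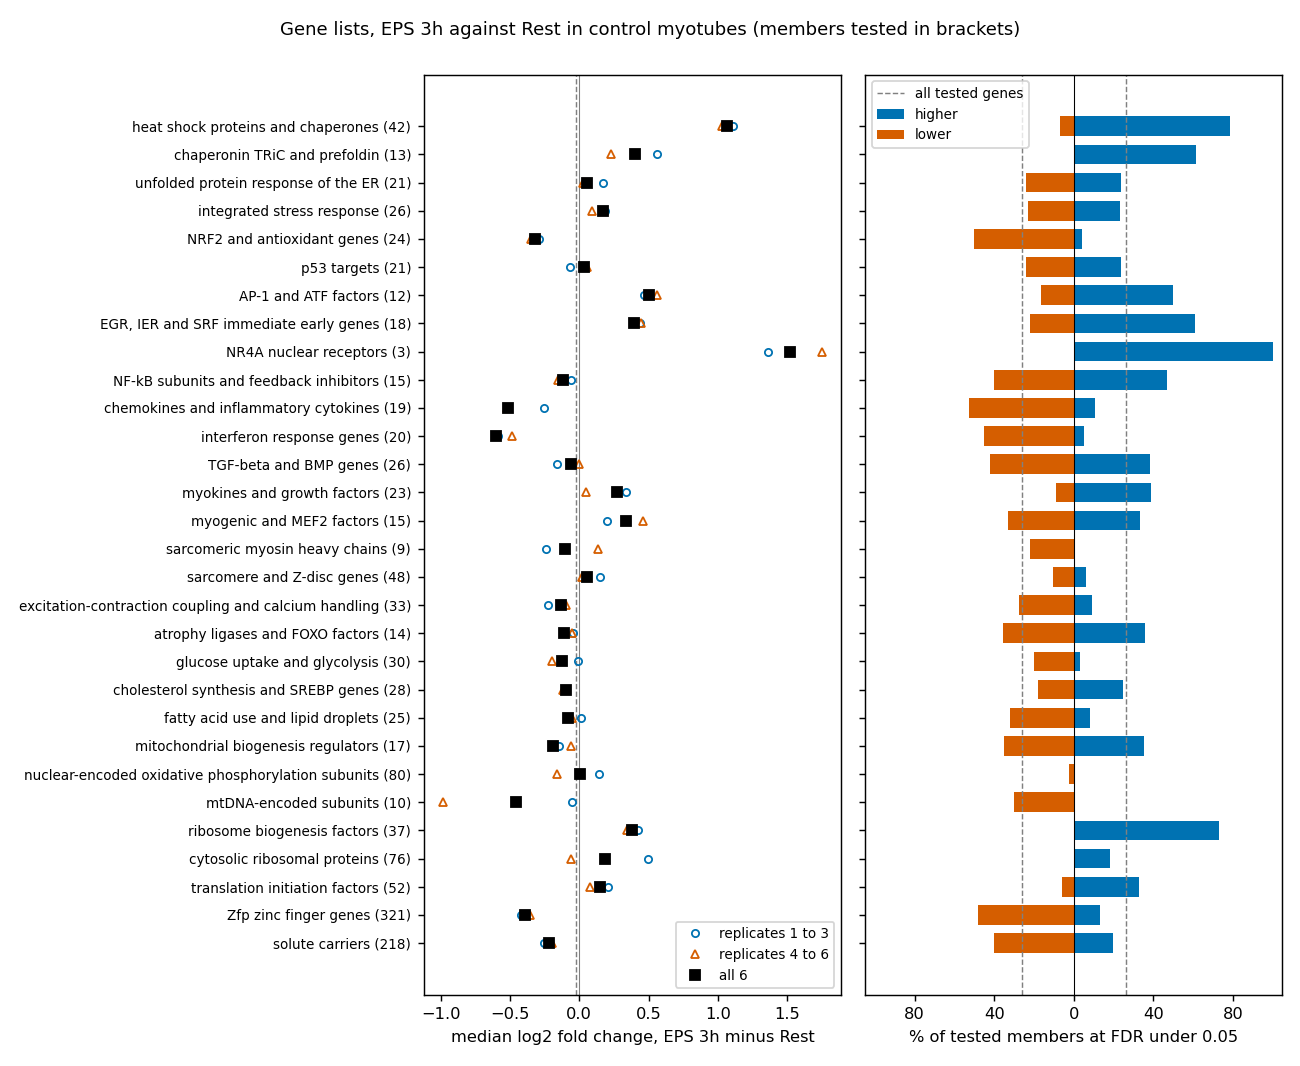
Left, the median log2FC of the tested members of 30 gene lists (EPS 3h minus Rest) in all 6 replicates (squares), replicates 1 to 3 (circles) and replicates 4 to 6 (triangles), with the median over all genes dashed. Right, the percentage of tested members higher (blue) and lower (orange) at an FDR under 0.05, with 26.1% and 25.9% over all tested genes dashed. Heat shock proteins stand at 1.06 in the median, and the mtDNA-encoded subunits show the widest gap between the sets of replicates.

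Most genes of the machinery that makes ribosomes were higher. Of 37 ribosome biogenesis factors 27 were higher and 0 lower, with a median log2FC of 0.38, and 18 were higher and 3 lower under library size scaling. *Nop58*, a core protein of the snoRNPs that methylate rRNA, went from 99.6 RPM at Rest (69.1 to 125) to 217 RPM at EPS 3h (142 to 251), with a log2FC of 1.07 (SE 0.15, FDR = 3.25e-07). *Wdr43*, of the small subunit processome, went from 79.4 RPM at Rest (61.6 to 86) to 153 RPM at EPS 3h (119.7 to 203), with a log2FC of 1.01 (SE 0.12, FDR = 3.87e-09). *Nolc1*, a nucleolar chaperone, went from 100.4 RPM at Rest (79.7 to 106) to 124 RPM at EPS 3h (113 to 185), with a log2FC of 0.52 (SE 0.13, FDR = 0.00121). Of the 37, 17 were also higher than at EPS 0h and 0 lower. Of 52 translation initiation factors 17 (32.7%) were higher and 3 (5.77%) lower, against 26.1% and 25.9% of all tested genes. *Eif2s2*, a subunit of eIF2, went from 242 RPM at Rest (217 to 313) to 710.2 RPM at EPS 3h (550.5 to 1072), with a log2FC of 1.66 (SE 0.15, FDR = 1.47e-11). Of 76 cytosolic ribosomal proteins 14 were higher (18.4%, under the 26.1% of all tested genes) and 0 lower. Only 1 was higher under library size scaling, and 2 to 24 when 1 replicate was left out. Their median was 0.50 for replicates 1 to 3 alone and -0.06 for replicates 4 to 6 alone. *Snhg15* (log2FC 1.31, FDR = 6.11e-08) and *Snhg16* (log2FC 1.16, FDR = 2.38e-08) were the largest rises among 5 higher and 0 lower of 13 hosts of small nucleolar RNAs. Of 21 splicing regulators 7 (33.3%) were higher, led by *Tra2b* (log2FC 1.15, FDR = 1.09e-12). Lower were 5 (23.8%), led by the cold-inducible RNA binding protein *Cirbp* (log2FC -0.85, FDR = 5.39e-05), and 9 under library size scaling.

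The largest family on the other side was that of the Zfp genes, DNA-binding zinc finger proteins of which many are KRAB repressors. Of 400 listed 321 were tested, 155 of them (48.3%) were lower and 42 (13.1%) higher, and 49 were lower by more than 2-fold. Their median log2FC was -0.39, at -0.42 and -0.36 for the lower and the higher replicate numbers. Against EPS 0h 76 were lower and 7 higher. *Zfp661* fell from 7.67 RPM at Rest (6.61 to 9.7) to 2.25 RPM at EPS 3h (1.48 to 3.09), with a log2FC of -1.77 (SE 0.18, FDR = 4.31e-10). *Zfp112* fell from 5.36 RPM at Rest (4.68 to 6.59) to 1.57 RPM at EPS 3h (1.44 to 1.88), with a log2FC of -1.77 (SE 0.17, FDR = 4.16e-11). *Zfp473*, which acts in histone mRNA processing, rose from 1.28 RPM at Rest (0.704 to 3.56) to 10.2 RPM at EPS 3h (7.01 to 15.4), with a log2FC of 2.78 (SE 0.35, FDR = 2.66e-08). Many Zfp genes are close copies of each other, and the counting may divide reads among them. Solute carriers also leaned lower, with 87 lower and 43 higher of 218 tested and a median of -0.22, and of 17 tested carriers with a mean under 1 RPM at Rest 13 were higher. *Slc40a1*, the iron exporter ferroportin, fell from 45.6 RPM at Rest (42.5 to 50.2) to 11.8 RPM at EPS 3h (7.72 to 15.9), with a log2FC of -1.96 (SE 0.22, FDR = 2.22e-09). *Slc1a7*, a glutamate transporter, rose from 0.488 RPM at Rest (0.215 to 0.889) to 10.7 RPM at EPS 3h (7.89 to 12.8), with a log2FC of 4.31 (SE 0.31, FDR = 8e-14).

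**Figure D5:**
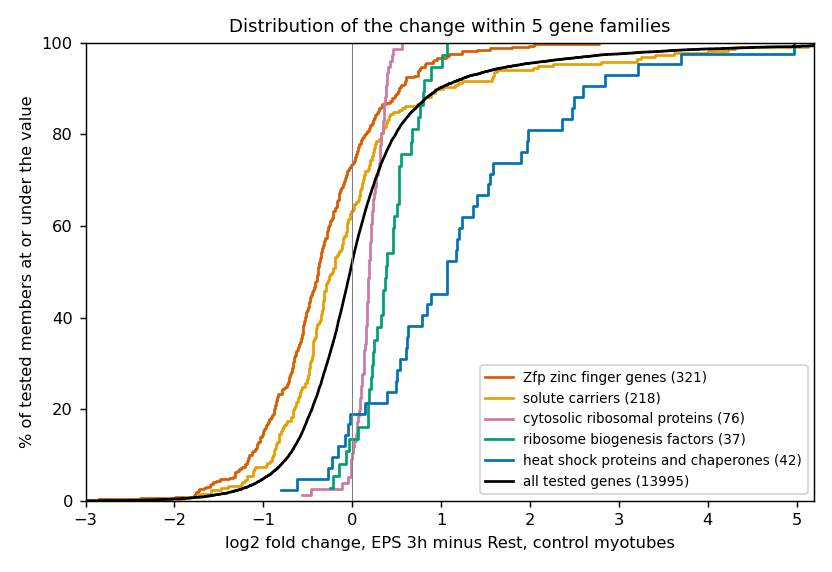
Cumulative percentage of tested members at or under each log2FC (EPS 3h minus Rest, horizontal axis) for 5 gene families and for all 13995 tested genes (black). The Zfp curve lies left of the curve of all genes, with a median of -0.39, and the ribosome biogenesis and heat shock curves lie right of it, with medians of 0.38 and 1.06.

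Genes of the matrix and its proteases went both ways. Collagens counted 8 higher (22.9%) and 9 lower (25.7%) of 35 tested, close to the shares of all genes, with 5 lower without replicate 2. Of the 8 higher collagens 4 had a mean under 1 RPM at Rest. *Col5a3*, a minor fibrillar collagen, was lower (log2FC -1.19, FDR = 6.9e-05), as was *Col8a2* (log2FC -0.68, FDR = 0.0101). *Col15a1*, a basement membrane collagen, rose from 1.07 RPM at Rest (0.47 to 1.62) to 17.9 RPM at EPS 3h (8.23 to 23.2), with a log2FC of 4.03 (SE 0.25, FDR = 2.12e-15). Of 25 serpins tested of 62, 13 were higher and 1 lower, and 5 of the 13 had a mean under 1 RPM at Rest. *Serpinb2*, plasminogen activator inhibitor 2, went from 0.537 RPM at Rest (0.258 to 1.15) to 34.7 RPM at EPS 3h (15.3 to 47.2), with a log2FC of 5.64 (SE 0.40, FDR = 5.15e-14). It stood at 3.92 ± 1.53 RPM (SD, n = 6) at EPS 0h (log2FC 3.06, FDR = 1.68e-08 against EPS 0h). *Mmp9*, a gelatinase, had 1.09 RPM at Rest (0.601 to 2.35) and 9.78 RPM at EPS 3h (6.03 to 12.6), with a log2FC of 2.82 (SE 0.30, FDR = 9.16e-10). Among 14 ADAMTS proteases 6 were higher, with *Adamts1* at 0.99, and 5 lower, with *Adamts4* at -1.41 on the log2 scale.

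The change from Rest to EPS 3h was set against the same change in myotubes given the *Tug1* LNA (*Tug1*-KD, 6 libraries at each time). The interaction passed an FDR of 0.05 in 1 gene (0.00715% of those tested), *Fut2*, a fucosyltransferase named after its values were seen. *Fut2* had 2.62 ± 0.883 RPM at EPS 3h and 1.93 ± 0.45 RPM at Rest in control myotubes (log2FC 0.44, FDR = 0.0825). In *Tug1*-KD myotubes its means were 3.38 and 0.578 RPM, a difference between the responses of 2.09 on the log2 scale (SE 0.32, FDR = 0.00204). With the replicate number as a block 8 genes passed, and without replicates 2, 3 or 4 none did.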

How the data were processed

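RNA of 36 wells of C2C12 myotubes was sequenced as stranded poly-A libraries, and 12 of them, with the EPS 0h Control and *Tug1*-KD wells for the further contrasts, carry the comparison. The authors deposited raw read counts per gene, unnormalised, made per the labels with FastQC 0.11.7, fastp 0.14.1 and STAR 2.5 on GRCm39. The counter and its strand setting are not given in the sources used here, so reads of overlapping genes may be shared. The table held 55416 genes, and the 1492 without a name took 0.0327% of the reads.

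Counts were tested in R 4.3.3 with edgeR 4.0.16 (TMM, robust quasi-likelihood F test, 6 groups in 1 fit) on the 13995 genes that reached 1 RPM in 12 or more libraries, after a check on simulated data. The SE is the log2FC divided by the square root of F. Main calls were an FDR under 0.01 with a log2FC beyond 1, and list calls an FDR under 0.05. Alternatives were DESeq2 1.42.0, limma-voom (limma 3.58.1), other scalings, filters and blocks, and leaving out each replicate number. Library pairs of a group differed beyond counting noise (chi-square per degree of freedom at least 4.42), so none was merged. Deviations from the group means of equally numbered Rest and EPS 3h libraries correlated at 0.122 to 0.501 in all 6 pairs. Rest and EPS 3h libraries of the same set (replicates 1 to 3, or 4 to 6) also correlated (means of 0.182 to 0.294), and those of different sets negatively. EPS 3h replicate 1 was the best match of Rest replicates 2 and 3. For Rest replicate 3 the correlation with its own number (0.122) was under the mean with its set mates (0.257). The values show the sets and do not settle whether equal numbers are pairs. Named genes are the 10 largest rises and falls whose higher group averaged 5 RPM or more and whose groups did not overlap, and in each list its preset main members and its 2 largest rises and falls, of which some are not reported here. Outside this rule *Hspa1l*, *Hspb7*, *Chordc1*, *Dnajb6*, *Msc*, *Bsx*, *Bmp7*, *Uncx*, *Epcam*, *Fut2* and the named markers of other cell types were named after their values were seen. The comparison, the gene lists and this rule were chosen with earlier results of these data known. Promoter windows are from RefSeq on GRCm38.p6, of which 10497 tested genes have 1 or more, and gene positions are on GRCm39 (Ensembl annotation). Depth limits genes of a few reads, and 3 reads in the shallowest Rest library are 0.157 RPM.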

Additional observations from a re-analysis of the deposited data

Results flagged for a closer look

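In groups of 6 libraries, 22 of the 348 gene and group pairs named above held 1 library far from the other 5, and chance flags about 1 in 20 such groups. Rest replicate 6 was the high library for 5 inflammatory genes, with *Cxcl1* at 117 RPM, *Cxcl5* at 32.8, *Ccl2* at 159, *Irf1* at 101 and *Nfkbia* at 110.1 RPM. EPS 3h replicate 3 stood apart for 8 genes, high for *Myog* (1136 RPM), *Hsf1* (99.7), *Serpinh1* (5358), *Dnajb5* (85.5), *Lfng* (6.54), *Snhg16* (40.5) and *Mars1* (160.3) and low for *Nrg1* (38.4 RPM). The others were *Fam110a* in EPS 3h replicate 5 (4.02 RPM), *Ptgs2* in EPS 3h replicate 6 (412 RPM), *Mars1* in Rest replicate 4 (205 RPM), and *Eif2s2* (313 RPM) and *Zfp473* (3.56 RPM) in Rest replicate 1. For genes near silent at Rest a few reads set 1 library apart, *Ubtfl1* and *4930447A16Rik* in Rest replicate 1 (0.0523 RPM each), *Prss55* in Rest replicate 2 (0.139 RPM) and *Pin1rt1* in Rest replicate 5 (0.141 RPM).

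The response of *Fut2* differed between *Tug1*-KD and control myotubes by 2.09 on the log2 scale (interaction FDR = 0.00204).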

How the results depend on the processing

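Of 132 list counts and 66 list medians, library size scaling moved most, 55 counts and 41 medians, and 17 list medians of up to 0.149 became negative, that of autophagy genes -0.10. The NF-kB median lay between -0.14 and 0.14 when 1 replicate was left out, the latter without replicate 6. At an FDR under 0.01 and over 2-fold, the 1346 higher genes became 3688 without a filter on low counts, 2364 with at least 10 counts in 6 libraries and 764 with glmTreat, which tests the fold itself. The 661 lower ones became 996 under library size scaling, 1107 without a filter and 140 with glmTreat. At an FDR under 0.05 the 3651 higher genes became 6910 without a filter, where more genes are tested, and the 3626 lower ones 5526 under library size scaling. Against EPS 0h, 1354 higher genes became 2207 without a filter, and 963 lower ones 1752 under library size scaling, 1666 with the replicate block and 1520 with a term for replicates 1 to 3 or 4 to 6. The interaction with *Tug1*-KD went from 1 gene to 8 with the replicate block. Leaving out 1 replicate number gave 1293 to 1397 and 581 to 713 genes over 2-fold, 3295 to 3746 and 3092 to 3521 at an FDR under 0.05, 1000 to 1268 and 607 to 919 against EPS 0h (607, 609 and 615 without replicates 1, 4 and 6) and 0 to 1 for the interaction. The causes were not tested.

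Of the genes named above, the replicate block brought *Hsp90b1*, *Chac1* (FDR = 0.0165) and *Fut2* (FDR = 0.0393) past an FDR of 0.05 and changed no other call, while it moved 25 list counts by over 1.5 times. Leaving out 1 replicate number took these calls past an edgeR FDR of 0.05: *Dnajb9* without replicate 2 (0.0731), *Hspb7* without 1, 2 or 6 (0.0503 to 0.0706), *Myh7b* without 2 or 6 (0.0577 and 0.0794), *Myoz1* without 3 (0.133), *Mki67* without 1, 4 or 5 (0.0719 to 0.134), *Pi16* without 1, 2, 3 or 5 (0.0581 to 0.161), *Nr4a2* without 2, 4 or 5 (0.0529 to 0.137), *Trib3* (against Rest) without 4 (0.0612), *Txnrd1* without 3 (0.111) and *Xirp1* without 1 or 3 (0.0611 and 0.185). No gene with a call changed direction under any alternative run. Size factors from SIRV spike-ins could not be run, as 0 rows of the table are SIRV genes. Depth limits genes of a few reads at Rest.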

Other observations

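Of 33 autophagy genes tested 8 were higher and 8 lower (24.2% each), near the 26.1% and 25.9% of all tested genes. *Atg12* and *Atg3*, of the conjugation machinery that extends the autophagosome, were higher (log2FC 1.01, SE 0.11, FDR = 3.21e-09 and log2FC 0.53, SE 0.08, FDR = 8.35e-07). *Tfeb*, the main transcription factor of the autophagy programme, was lower (log2FC -0.35, FDR = 0.00832). The receptor *Sqstm1*, or p62, did not pass (log2FC 0.03, FDR = 0.912). The small GTPase *Rrad*, an inhibitor of calcium channels, had 16.8 RPM at Rest (13.7 to 20.8) and 39.8 RPM at EPS 3h (27.6 to 54.4), without overlap (log2FC 1.27, SE 0.13, FDR = 7.85e-10). Of 20 cytosolic aminoacyl-tRNA synthetases 9 were higher and 1 lower, *Mars1*, but 4 and 5 under library size scaling. The helicase *Ddx3x*, which unwinds mRNA during initiation, was higher (log2FC 1.14, FDR = 1.96e-10), and the nuclear noncoding RNA *Neat1*, the scaffold of paraspeckles, was lower (log2FC -0.76, FDR = 0.00377). The metallothionein *Mt1* did not pass (log2FC -0.04, FDR = 0.821).

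A few of the strongly raised genes lie near chaperone genes, a count chosen after the values were seen. Distance was taken between the nearest ends of the genes on either strand. Of the 10 largest rises 3 lie within 100 kb of a heat shock list member, *Gm48565* next to *Hspa8*, *Gm5566* near *Hsph1* and *Ubtfl1* near *Chordc1*, against 1.4% of 13903 tested genes with a position. Of 61 genes near silent at Rest that have a position, 3 lie so close (4.92%). *Gm48565* (chromosome 9, 40732265 to 40733969 of GRCm39) starts 1.226 kb past *Hspa8* on the same strand, and whether its reads come from a transcript of its own was not tested.

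Noncoding and unclassified genes held larger shares of higher genes than coding ones, but nearly equal shares among genes with at least 1 RPM at Rest. Genes under 1 RPM at Rest could pass the filter on low counts only through other groups. Of 181 unclassified genes tested 52.5% were higher, and 23.3% of the 90 with at least 1 RPM at Rest. Among the 824 long noncoding genes tested 38.3% were higher, and 23.1% of the 598 with at least 1 RPM at Rest, where 22.0% of protein coding genes were higher. The fall of long noncoding genes reached 32.8% of those 598, against 27.9% of the coding genes at that level.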
